A study of Homo sapiens with 6 samples.

Results

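The genes of the YAP-TEAD system were examined in RNA-Seq counts of H1155 cells, a neuroendocrine large cell lung cancer line. They were the rows of the gene table whose symbol was YAP1, WWTR1, TEAD1, TEAD2, TEAD3, TEAD4, CYR61, CTGF, ANKRD1 or AMOTL2, 10 of 58735 genes in all. The rule itself used symbols and no measured value, but the set of genes was chosen with earlier results of these data known. Of the 10 genes, 6 are the factors themselves (2 coactivators and 4 TEAD proteins) and 4 are targets, and 8 had enough counts to be tested.

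The comparison was between 3 libraries labelled WT, from wildtype H1155 cells, and 3 libraries labelled GFI1-KO, from H1155 cells edited with CRISPR/Cas9 and paired sgRNAs against the promoter region of GFI1, a zinc finger transcription factor best known as a repressor in blood cells. Both groups were untreated and grown in DMEM with fetal bovine serum. According to the study's methods the edited cells were sorted as monoclonal clones, so the effect of the edit and differences that arose in a clone cannot be told apart in this design. The study also reports that H1155 cells grew as suspended clusters, and that they attached as single cells after the deletion. The part of this difference in attachment in the results was not tested. The sources used here do not say which clone or culture each library came from, so the p-values measure the spread between these libraries, which may be technical.

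As background, YAP1 and its relative WWTR1 (also called TAZ) are coactivators that do not bind DNA themselves. They enter the nucleus and join TEAD proteins, the DNA-binding partners, which recognise the letters GGAATG. The Hippo kinases STK3 and STK4 act on the kinases LATS1 and LATS2, which phosphorylate both coactivators and keep them in the cytoplasm. Loss of cell attachment is among the signals that keep them there. CYR61, CTGF, ANKRD1 and AMOTL2 are widely used readouts of the complex, and neuroendocrine lung cancers often carry little YAP1.

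The recognition letters can be seen in the DNA just before the starts of some of these genes. RefSeq promoters on GRCh38.p14 were held for 7 of the 10 genes, with 10 starts among them. TEAD1, TEAD4 and CYR61 had no entry. In the 250 bases before each start, GGAATG or its reverse complement CATTCC was found for 4 genes, and of all 35116 RefSeq promoters 11.9% held it at least once. The 4 sequences are shown because they carry these letters, and 2 of them belong to YAP1 and AMOTL2, which had the largest changes among the 8 tested of the 10 genes. They are written 5′ to 3′ on the strand of the gene, and capitals mark the GGAATG or CATTCC letters. The YAP1 window is chr11:102110197-102110446 (plus strand), that of CTGF is chr6:131951373-131951622 (minus strand), that of ANKRD1 is chr10:90921088-90921337 (minus strand) and that of the second AMOTL2 start is chr3:134374448-134374697 (minus strand).
YAP1: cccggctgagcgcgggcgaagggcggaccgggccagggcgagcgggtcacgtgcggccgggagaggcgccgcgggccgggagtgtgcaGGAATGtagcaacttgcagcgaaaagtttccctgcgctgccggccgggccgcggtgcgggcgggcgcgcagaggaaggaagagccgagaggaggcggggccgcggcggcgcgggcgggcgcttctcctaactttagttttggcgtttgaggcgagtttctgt
CTGF: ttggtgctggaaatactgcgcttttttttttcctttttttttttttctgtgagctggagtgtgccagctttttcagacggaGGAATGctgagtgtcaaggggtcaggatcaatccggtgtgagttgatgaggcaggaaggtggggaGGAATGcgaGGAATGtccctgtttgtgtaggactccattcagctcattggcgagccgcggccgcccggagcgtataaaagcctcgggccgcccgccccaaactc
ANKRD1: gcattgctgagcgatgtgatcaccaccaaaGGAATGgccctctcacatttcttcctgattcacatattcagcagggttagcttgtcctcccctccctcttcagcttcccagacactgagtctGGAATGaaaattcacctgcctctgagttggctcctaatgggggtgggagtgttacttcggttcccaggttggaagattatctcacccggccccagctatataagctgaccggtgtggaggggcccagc
AMOTL2, second start: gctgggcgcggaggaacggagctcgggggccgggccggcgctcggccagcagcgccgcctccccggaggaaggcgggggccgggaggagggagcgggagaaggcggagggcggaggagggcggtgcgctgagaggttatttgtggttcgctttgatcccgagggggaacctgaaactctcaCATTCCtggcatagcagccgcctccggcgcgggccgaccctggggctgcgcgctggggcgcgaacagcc

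CTGF, a secreted matrix protein, had 3 copies, beginning 169, 104 and 95 bases before its start, and 29 of the 35116 promoters (0.083%) had that many. ANKRD1, an ankyrin repeat protein of muscle and other cells, had 2 copies, at 220 and 128 bases, and 0.94% of all promoters had 2 or more. YAP1 had 1 copy at 162 bases. The second AMOTL2 start had 1 copy at 69 bases, read on the other strand. The first AMOTL2 start and the starts of WWTR1, TEAD2 and TEAD3 held no copy in these windows. A second search, for the letters AAATCA or TGATTT, which hold the core of known GFI1 sites and do not overlap the TEAD letters, found them before 0 of the 10 starts and in 11.6% of all promoters. The core alone was not searched, so that result does not show that it is absent. These matches are descriptions of letters, and binding was not measured in these libraries.

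**Figure D1:**
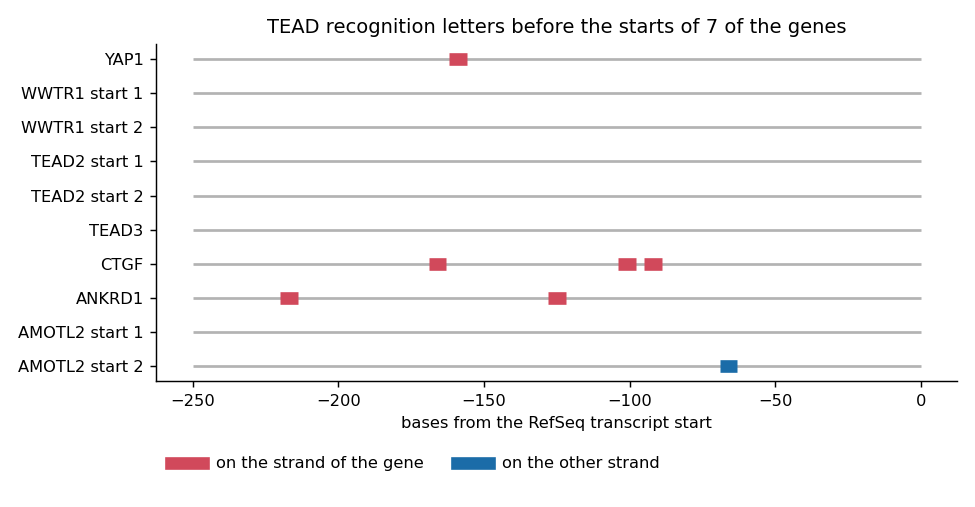
Positions of GGAATG (red, strand of the gene) and CATTCC (blue, other strand) in the 250 bases before 10 RefSeq starts of 7 genes. The horizontal axis gives bases from the start. CTGF holds 3 copies, ANKRD1 2, and YAP1 and the second AMOTL2 start 1 each.

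The WT libraries held 14882914 to 16102215 counts and the GFI1-KO libraries 17503794 to 17692882, so 3 counts, the least taken as detectable, stood for 0.170 to 0.202 CPM (counts scaled to the library total). Intervals and this floor cover counting error only. GFI1 itself had 153, 106 and 125 counts in the WT libraries and 174, 188 and 170 in the GFI1-KO libraries, a log2 fold change of 0.31 (SE 0.12, edgeR adjusted p = 0.0273), so no loss of its mRNA was seen in them. That call was lost in several alternatives given in the closing section. The study examined GFI1 protein in H1155 cells by immunoblot, whereas these counts measure mRNA alone. Neuroendocrine markers were present in both groups, with a summed level of 1522 to 1540 CPM in WT and 1883 to 1890 CPM in GFI1-KO. Of the 7, 4 rose and 3 fell, where 72.4% of all tested genes were called higher or lower. Of the 7 fibroblast markers 4 were tested, 1 higher (PDGFRA, 0 to 2 counts in WT and 14 to 17 in GFI1-KO) and 3 lower (COL1A1, COL1A2 and PDGFRB, the last from 128 to 136 down to 15 to 17 counts), and COL1A2 had most of their counts. The summed levels of fibroblast markers (190.5 to 195.9 against 125 to 131 CPM, with DCN at 0 and LUM and THY1 at 6 counts or fewer in every library) and of endothelial markers (27.1 to 30.4 against 13.3 to 14.9 CPM, with VWF, KDR and TEK at 6 counts or fewer) were lower in GFI1-KO. All 5 leukocyte markers were at 6 counts or fewer in every library (summed 0.186 to 0.470 against 0.171 to 0.284 CPM). The part of these marker differences in the results on the YAP-TEAD genes was not tested.

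Both coactivators rose in the GFI1-KO libraries, YAP1 by 13.4-fold and WWTR1 by 4.03-fold, while TEAD1 and TEAD3 rose by less than either and TEAD4 did not pass the test. Among the targets, CTGF rose 4.14-fold and CYR61 1.56-fold, whereas AMOTL2 fell by 3.81 on the log2 scale, which is 14.0-fold lower. Of the 8 tested genes, 6 were higher and 1 was lower by edgeR's quasi-likelihood test (Benjamini-Hochberg adjusted p of at most 0.05). Among all 17514 tested genes 72.4% were called, 36.5% higher and 35.9% lower, so a call was common in this comparison. The 2 groups held separate ranges of normalized counts for 8 of the 8 genes, as they did for 74.4% of all tested genes. The median log2 fold change was 0.69 for the 8 genes and 0.0005 for all tested genes. YAP1 and AMOTL2 had log2 fold changes beyond 3 in size, as 1.70% of all tested genes had. WWTR1 and CTGF had changes beyond 2, as 4.12% had. The set of genes was chosen with earlier results of these data known, so these sizes and the median are descriptions only. No test of the 10 genes as a set was made.

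**Figure D2:**
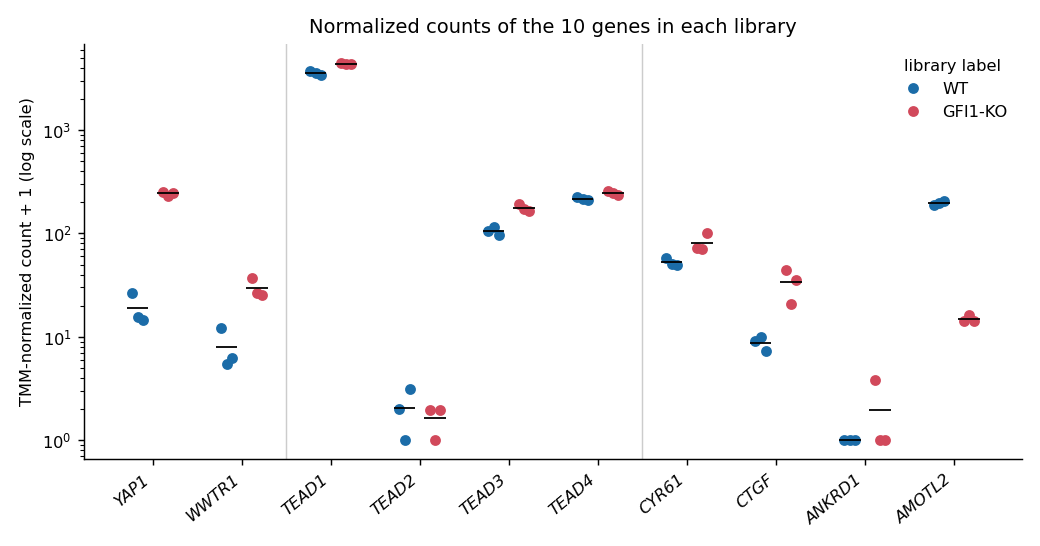
TMM-normalized counts (plus 1, log axis) of the 10 genes in each of the 3 WT (blue) and 3 GFI1-KO (red) libraries, with the mean as a black line and vertical lines between coactivators, TEAD factors and targets. YAP1 and AMOTL2 exchange places, YAP1 from a mean of 17.9 to 242.5 and AMOTL2 from 196 to 13.9, while TEAD1 is the highest gene in all 6 libraries.

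YAP1 (ENSG00000137693, chr11:102110461-102233423, plus strand) had 25, 13 and 13 counts in the WT libraries and 265, 241 and 262 in the GFI1-KO libraries. Every GFI1-KO library was far above every WT library, and the highest WT count, 25, has a 95% Poisson interval of 16.2 to 36.9. Normalized counts went from 17.9 ± 6.70 to 242.5 ± 12.6 (SD, n = 3 each), a log2 fold change of 3.74 (SE 0.18, edgeR adjusted p = 4.52e-16). The change ranked 61 among the increases of all tested genes. Its transcripts share 8.72% of their 50-base words with a pseudogene, YAP1P1, and 1 other gene. YAP1P1 had 0 to 3 counts in each library.

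WWTR1 (ENSG00000018408, chr3:149517235-149736714, minus strand) encodes TAZ. It had 11, 4 and 5 counts in WT and 38, 27 and 26 in GFI1-KO. The groups did not overlap, but the WT counts were few, and the lowest, 4, has a 95% Poisson interval of 1.09 to 10.2. Normalized counts went from 6.98 ± 3.73 to 28.8 ± 6.48 (SD, n = 3 each), a log2 fold change of 2.01 (SE 0.39, edgeR adjusted p = 4.51e-05). WWTR1 shares 8.67% of its 50-base words with 7 other genes.

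On a scale per length, the summed coactivator level was below the summed TEAD level in every library. YAP1 had 0.172 ± 0.0644 FPKM in WT and 2.31 ± 0.119 FPKM in GFI1-KO (fragments per kilobase, scaled to the library total; SD, n = 3 each). The summed level of both coactivators was 0.169 to 0.328 FPKM in the WT libraries and 2.36 to 2.66 FPKM in the GFI1-KO libraries, and YAP1 made up 75.2% to 81.3% of that sum in WT and 90.3% to 93.1% in GFI1-KO. The ratio of the summed TEAD level to the summed coactivator level was 92.3 to 171 in the WT libraries and 13.7 to 14.9 in the GFI1-KO libraries, with no overlap. These ratios are of mRNA and are given without a test.

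The TEAD genes, which supply the DNA-binding part of the complex, had smaller fold changes than the coactivators. TEAD1 (ENSG00000187079, chr11:12674591-12944483, plus strand) had 3665, 3230 and 3254 counts in WT and 4676, 4588 and 4573 in GFI1-KO. It was the most abundant of the 10 genes in every library, and its small increase lay outside the spread of the libraries. Its normalized counts went from 3581 ± 169 to 4369 ± 78.2 (SD, n = 3 each), a log2 fold change of 0.29 (SE 0.04, edgeR adjusted p = 8.33e-08).

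TEAD3 (ENSG00000007866, chr6:35473597-35497076, minus strand) had 102, 103 and 90 counts in WT and 200, 179 and 172 in GFI1-KO. Its log2 fold change was 0.74 (SE 0.13, edgeR adjusted p = 1.07e-05). TEAD4 (ENSG00000197905, chr12:2959330-3040673, plus strand) had 220, 194 and 198 counts in WT and 271, 260 and 249 in GFI1-KO. Its log2 fold change was 0.19 (SE 0.09, edgeR adjusted p = 0.072). Although its groups did not overlap, TEAD4 was not called. Both results moved under a correction that fitted the counts of each library on GC content and gene length: the TEAD3 value became 0.17 (adjusted p = 0.246) and that of TEAD4 became -0.41 (adjusted p = 4.33e-04). Their transcripts are GC-rich, 59.8% and 60.4% against 43.0% for TEAD1, whose value was 0.63 under the same correction. TEAD2 (ENSG00000074219, chr19:49340595-49362457, minus strand) had 1, 0 and 2 counts in WT and 1, 0 and 1 in GFI1-KO, at or under the floor of 3 counts, and was not tested.

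Within the family, the order of the shares of the summed TEAD level per length was the same in all 6 libraries. TEAD1 made up 72.5% to 73.2% of the TEAD FPKM in the WT libraries and 71.1% to 72.8% in the GFI1-KO libraries, and these ranges overlap. The TEAD3 share was 6.81% to 7.80% in WT and 9.24% to 10.3% in GFI1-KO. The TEAD4 share was 19.7% to 20.1% in WT and 17.9% to 18.6% in GFI1-KO. These TEAD shares come from counts without the GC and length correction and were not computed with it. Under that correction the log2 fold changes were 0.63 for TEAD1, 0.17 for TEAD3 and -0.41 for TEAD4. TEAD3 shares 0.227% of its 50-base words with TEAD4.

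**Figure D3:**
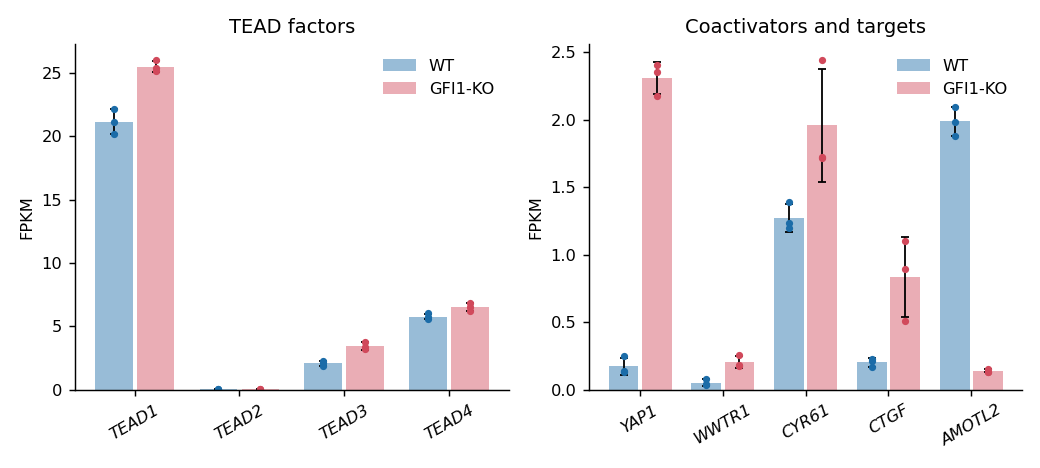
FPKM of the TEAD factors (left) and of coactivators and targets (right, another scale) in WT (blue) and GFI1-KO (red); bars are means, whiskers the SD and points the 3 libraries, and ANKRD1 is left out. TEAD1 stands at 21.1 and 25.5 FPKM, while YAP1 goes from 0.172 to 2.31 FPKM and AMOTL2 from 1.99 to 0.139 FPKM.

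The targets did not move together. CTGF (ENSG00000118523, chr6:131948176-131951373, minus strand), whose promoter window held 3 copies of the TEAD letters, had 8, 8 and 6 counts in WT and 45, 21 and 37 in GFI1-KO. Every GFI1-KO library was above every WT library, and the GFI1-KO libraries differed among themselves by more than the WT libraries did. Normalized counts went from 7.78 ± 1.33 to 32.5 ± 11.7 (SD, n = 3 each), a log2 fold change of 2.05 (SE 0.38, edgeR adjusted p = 2.43e-05).

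CYR61 (ENSG00000142871, chr1:85580761-85583962, plus strand), a secreted matrix protein of the same family as CTGF, had 55, 45 and 46 counts in WT and 74, 74 and 106 in GFI1-KO. The groups did not overlap, and 1 library, GFI1-KO replicate 3, was well above the other two of its group. The log2 fold change was 0.64 (SE 0.19, edgeR adjusted p = 0.00465). Without GFI1-KO replicate 3 it was 0.45 and no longer passed the test (adjusted p = 0.0618).

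ANKRD1 (ENSG00000148677, chr10:90912096-90921276, minus strand) had 0 counts in the 3 WT libraries and 3, 0 and 0 in the GFI1-KO libraries. It was at or under the floor in every library, was not tested, and no change in it was detectable at this depth.

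AMOTL2 (ENSG00000114019, chr3:134355874-134375479, minus strand) encodes an angiomotin-like protein of cell junctions that binds YAP1 and holds it in the cytoplasm, and is itself a YAP-TEAD target. It had 181, 177 and 197 counts in WT and 14, 16 and 14 in GFI1-KO. The groups were far apart, with little spread in either. Normalized counts went from 196 ± 10.7 to 13.9 ± 1.10 (SD, n = 3 each), a log2 fold change of -3.81 (SE 0.18, edgeR adjusted p = 5.04e-16), which ranked 113 among the decreases of all tested genes. Of its 50-base words, 2.06% are shared with a ribosomal protein pseudogene that had 0 counts.

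The other angiomotins were looked at after the AMOTL2 value was known. AMOT rose by 0.62 on the log2 scale (edgeR adjusted p = 5.97e-05). AMOTL1 fell by 0.25 on the log2 scale (adjusted p = 1.12e-06). In normalized counts AMOTL1 was the most abundant of the 3 in both groups, with 2948 ± 94.6 in WT and 2481 ± 61.9 in GFI1-KO, against 124 ± 16.0 and 190.1 ± 13.9 for AMOT (SD, n = 3 each). The fall by more than 3 on the log2 scale was thus measured in 1 of the 3 angiomotin genes.

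**Figure D4:**
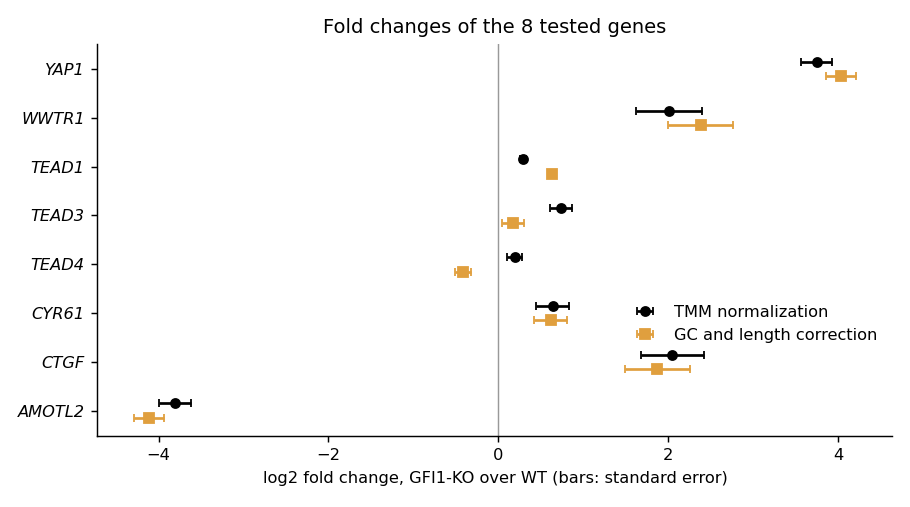
Log2 fold changes (GFI1-KO over WT) of the 8 tested genes with their standard errors, with TMM normalization (black circles) and with the GC and length correction (orange squares). YAP1, WWTR1, CTGF and AMOTL2 keep values beyond 1.8 in size in both, TEAD3 goes from 0.74 to 0.17 and TEAD4 from 0.19 to -0.41.

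The order of the levels per length changed with these values. In WT the order by FPKM was TEAD1 (21.1), TEAD4 (5.77), TEAD3 (2.08), AMOTL2 (1.99), CYR61 (1.27), CTGF (0.202), YAP1 (0.172), WWTR1 (0.0503), TEAD2 (0.0212) and ANKRD1 (0). The ranges of the libraries overlapped between TEAD3 and AMOTL2, between CTGF and YAP1, between WWTR1 and TEAD2 and between TEAD2 and ANKRD1. In GFI1-KO the order was TEAD1 (25.5), TEAD4 (6.51), TEAD3 (3.43), YAP1 (2.31), CYR61 (1.96), CTGF (0.835), WWTR1 (0.205), AMOTL2 (0.139), ANKRD1 (0.0289) and TEAD2 (0.0127). Here YAP1 and CYR61 overlapped, as did ANKRD1 and TEAD2. YAP1 thus stood below AMOTL2 in every WT library and above it in every GFI1-KO library. The summed level of all 4 targets was 3.45 to 3.48 FPKM in WT and 2.38 to 3.47 FPKM in GFI1-KO, ranges that overlap. Without AMOTL2, the target that was lower, the sum of the other 3 was 1.36 to 1.60 FPKM in WT and 2.23 to 3.33 FPKM in GFI1-KO. AMOTL2 was left out because of its value, and CTGF and CYR61 were each called higher. The sum without AMOTL2 therefore restates those calls and is no separate result.

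Other genes of a widely used YAP/TAZ target list followed neither direction alone. Of 18, 14 were tested, 10 were higher, 2 were lower and 2 were not called, and their median was 0.37 on the log2 scale. Among all tested genes 36.5% were higher and 35.9% lower. IGFBP3, which binds insulin-like growth factors, had 2, 0 and 0 counts in WT and 128, 103 and 118 in GFI1-KO, a ratio of summed counts of 156 (95% interval 42.9 to 1294, counting error only). Both WT counts were in WT replicate 1, and against the other two WT libraries, at 0, IGFBP3 was at least 68.2-fold higher, taking 3 counts over both as the floor. MYOF, a membrane repair protein, rose from 12.4 ± 2.97 to 134 ± 9.93 normalized counts (SD, n = 3 each), a log2 fold change of 3.43 (edgeR adjusted p = 1.79e-13).

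Of the 2 that were lower, FJX1, the four-jointed kinase homolog, had a log2 fold change of -2.15 (edgeR adjusted p = 3.56e-08), or -2.86 with the GC and length correction. CRIM1, a transmembrane protein that binds BMPs, had one of -0.91 (adjusted p = 6.75e-12). With the correction 7 of this list were higher and 4 lower. At least 10 counts in every library left 7 higher and 1 lower.

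The VGLL proteins compete with the coactivators for TEAD. Of these 4 genes, VGLL4 alone was tested, and it rose from 443 ± 16.0 to 977 ± 52.3 normalized counts (SD, n = 3 each), a log2 fold change of 1.14 (SE 0.06, edgeR adjusted p = 5.76e-15). VGLL1 had 0 counts in every library, and VGLL2 and VGLL3 had at most 4 in any library.

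The core kinases and adaptors, which inhibit the coactivators, were all tested. Of the 11, 3 were higher and 8 were lower, and their median was -0.32 on the log2 scale. The shares over all tested genes were 36.5% higher and 35.9% lower. TAOK2 (0.95, edgeR adjusted p = 1.44e-17) and TAOK3 (0.62, adjusted p = 5.27e-09), which phosphorylate STK3 and STK4, had the largest increases. MOB1B (-0.60, adjusted p = 9.32e-12), an adaptor of the LATS kinases, and LATS1 (-0.48, adjusted p = 2.23e-10) had the largest decreases. This balance rested on the treatment of GC content and length: with the correction 6 were higher and 1 was lower, and MOB1B became 0.10 (adjusted p = 0.0513) and LATS1 0.05 (adjusted p = 0.309).

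The upstream regulators at the membrane, which feed into the kinases, held 10 higher, 5 lower and 1 not called among 16 tested genes, with a median log2 fold change of 0.47. Over all tested genes 72.4% were called, 36.5% higher and 35.9% lower. FAT1, an atypical cadherin, rose from 374 ± 27.9 to 1227 ± 24.5 normalized counts (SD, n = 3 each), a log2 fold change of 1.71 (edgeR adjusted p = 1.08e-18). NF2, which encodes Merlin, rose by 0.79 (adjusted p = 1.11e-14). FAT4, another atypical cadherin, had a log2 fold change of -1.80 (adjusted p = 5.04e-11), and WWC1, which encodes KIBRA, one of -0.40 (adjusted p = 3.98e-05). Without GFI1-KO replicate 2 the number that were lower was 3. LATS2 and PTPN14 stand in more than 1 of these lists, and both were called higher. LATS2 rose by 0.29 on the log2 scale (edgeR adjusted p = 0.026), and its groups overlapped. PTPN14 rose by 2.23 (adjusted p = 3.2e-06), and its groups did not overlap.

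**Figure D5:**
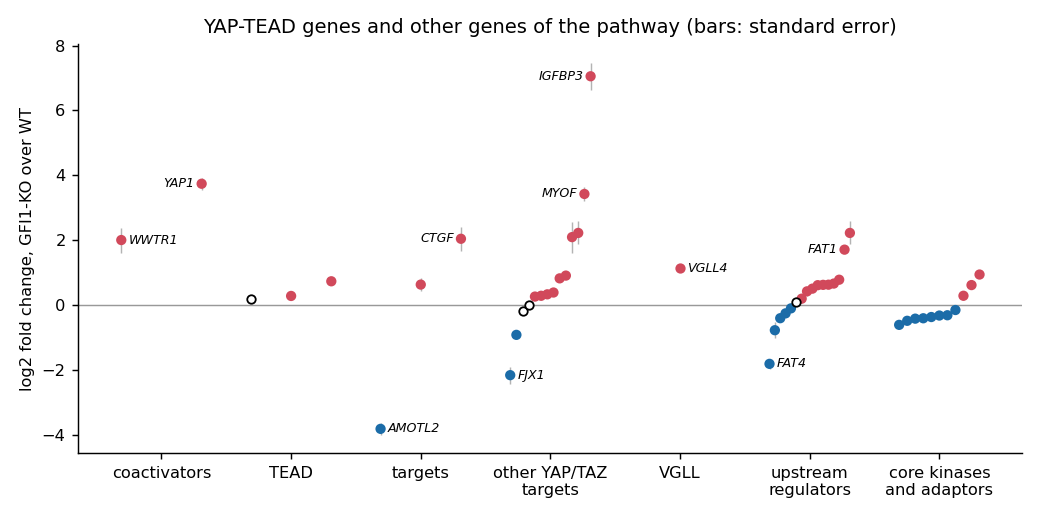
Log2 fold changes (GFI1-KO over WT) with their standard errors of the tested genes of 7 groups, ordered by value within each; red points were called higher, blue lower, and open points were not called. YAP1 at 3.74 and AMOTL2 at -3.81 stand apart from the kinases and adaptors, which lie between -0.60 and 0.95.

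Genes within 500 kb of YAP1 and of AMOTL2 were also examined, a choice made after the values of both were known. Near YAP1, 5 genes were tested, 1 of them higher and 1 lower, with log2 fold changes from -0.49 (CEP126, edgeR adjusted p = 2.98e-04) to 0.80 (BIRC3, adjusted p = 5.85e-10). BIRC2, an inhibitor of cell death beside YAP1, had 0.03 (adjusted p = 0.562). Near AMOTL2, all 4 tested genes were lower, from -0.73 (ANAPC13, adjusted p = 1.37e-12) to -0.10 (RYK, adjusted p = 0.032). Of all tested genes 36.5% were higher and 35.9% lower. Neither YAP1 nor AMOTL2 had a tested neighbour within this distance that changed as much as it did.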

How the data were processed

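RNA-Seq of 6 H1155 libraries was analysed, 3 labelled WT and 3 labelled GFI1-KO. The authors deposited unnormalized read counts per gene on hg38, with gene lengths and positions. The study's methods name poly-T selection, a NovaSeq system, FastQC, Hisat2 and featureCounts, whereas the submitters' processing notes name Bowtie2 and HTSeq. The annotation, strand setting and rule for reads that match several places are not given in the sources used here. Without a known strand setting, reads of overlapping genes on opposite strands cannot be told apart.

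Counts were tested with edgeR 4.0.16 in R 4.3.3 (TMM factors, filterByExpr, quasi-likelihood F test, Benjamini-Hochberg adjustment over all 17514 genes tested, adjusted p of at most 0.05, no fold minimum). Standard errors are the log2 fold change over the square root of F. Normalized counts are counts over the effective library size, times its mean. FPKM used the deposited length and total counts. Library totals were 14882914 to 17692882 counts. Count intervals are 95% Poisson intervals, and that of the IGFBP3 ratio is an exact conditional one. Shared words of 50 bases and GC content came from GENCODE transcripts of GRCh38.

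The named genes were the 10 genes, GFI1, up to 2 largest increases and decreases of each pathway list among called genes with a mean of at least 50 normalized counts, any VGLL gene tested and the markers. Although the rows were taken by symbol, the set of genes and the lists were chosen with earlier results of these data known. Alternatives were DESeq2 1.42.0, limma-voom (limma 3.58.1), other scaling factors, other filters, the replicate number as a block, a GC content and length correction (splines of 5 degrees of freedom) and each library left out in turn. In 5 simulated data sets with 200 genes changed by 1 on the log2 scale, 87.9% of these were recovered and 5.46% of calls were unchanged genes. Most genes were unchanged in those sets, while 72.4% of tested genes were called in the data, so these rates may not carry over. No library pair agreed within sampling noise (chi-square per degree of freedom 1.82 to 4.14).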

Additional observations from a re-analysis of the deposited data

How the results depend on the processing

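Over the 16 alternatives, 642 values kept their direction and call, or, where there was no call, stayed within 1.5 times (numbers of genes) or 1 SD (FPKM and shares), while 10 lost their call, 10 counts moved and 6 values reversed. A mean of FPKM or of a share without 1 library cannot move by more than 1 SD of all 3. Nor can a share change with the scaling factors. Those values were bound to be kept, so their part of the 642 is no check. YAP1, WWTR1, TEAD1, CTGF and AMOTL2 kept direction and call in every alternative that tested them, but WWTR1 and CTGF did not reach at least 10 counts in every library and were not tested there. The GC and length correction, alone or with the replicate block, gave TEAD3 0.17 (adjusted p = 0.246 and 0.263), TEAD4 -0.41 (4.33e-04 and 5.10e-04), LATS1 0.049 (0.309 and 0.344) and MOB1B 0.10 (0.0513 and 0.0613). It made 2 of the 10 genes lower, 6 kinases and adaptors higher and 1 lower, and 4 other targets lower. At least 10 counts in every library left 1 other target lower. The cause was not tested. Leaving out 1 library gave 0.45 to 0.73 for CYR61 (no longer called without GFI1-KO replicate 3) and 3 to 5 upstream regulators lower. GFI1 lost its call with DESeq2 (adjusted p = 0.127), upper-quartile factors (0.0545), the correction (0.192, or 0.194 with the block), and without WT replicate 2 (0.147), WT replicate 3 (0.0633) or GFI1-KO replicate 2 (0.0927).

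Over all genes, 6395 were higher and 6285 lower, against 5753 and 5741 with DESeq2 and 5907 and 4738 with the correction. Same-numbered libraries did not deviate together (r from -0.0034 to 0.023 in 3 pairs, against -0.052 to 0.042 in 6 other pairs). No pairing by number was thus seen, and whether such libraries shared a culture or a preparation was not tested. The replicate block gave 6359 higher and 6214 lower genes and changed no call among the 10 genes. Depth limits TEAD2 and ANKRD1, at 3 counts or fewer (without 1 library each, 0.0104 FPKM for TEAD2 in WT without WT replicate 3, 0.0191 FPKM in GFI1-KO without GFI1-KO replicate 2, and 0 for ANKRD1 without GFI1-KO replicate 1), and the WT values of WWTR1 and CTGF, at 11 counts or fewer.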
